A study of Mus musculus with 12 samples.

Results

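The regulatory T cell genes described here were 7 named genes, Foxp3, Il2ra, Ikzf2, Tnfrsf4, Tnfrsf18, Tnfrsf9 and Ccr8, taken by symbol from a count table of 54532 mouse genes and followed across 12 intracranial melanomas. All 7 passed the filter on low counts and were among the 17320 genes tested. The study asked how natural killer (NK) cells affect T cells in melanoma growing in the brain under checkpoint blockade. Wild-type C57Bl6 mice (C57BL/6J in the study's methods), 6 to 10 weeks old, received B16-OVA cells, a mouse melanoma line that expresses ovalbumin, under the skin of the flank. After 3 days the luciferase-expressing derivative B16-OVA/Fluc was placed in the striatum. IgG mice were given a control antibody. CD8L and CD8H mice were given anti-PD-1 with anti-CTLA-4 (PC blockade), and dNK mice were given PC blockade with an antibody that depletes NK cells. Mice received 200 µg of each blocking or control antibody per dose, and 100 µg of the depleting antibody every 4 days. The submitters' design text places PC blockade on days 5 and 7 after intracranial implantation, the study's methods on days 4 and 6, and both place tumor isolation on day 8. The depleting antibody is named anti-Asialo-GM2 in the labels and anti-Asialo-GM1 in the methods, and asialo-GM1 is also carried by some other leukocytes, activated T cells among them. Each group had 3 tumors from separate mice. The study divided PC-treated tumors into CD8L and CD8H by low or high CD8+ T cell abundance, so differences in T cell genes between CD8H and CD8L are not independent of how these groups were formed.

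Regulatory T cells (Tregs) are CD4+ T cells that restrain other immune cells, and they are common in tumors. Foxp3 encodes the transcription factor that defines them, and Ikzf2 encodes Helios, a transcription factor of many Tregs that is not restricted to them. Il2ra encodes CD25, the chain that gives the interleukin-2 (IL-2) receptor its high affinity. Tnfrsf4 (OX40), Tnfrsf18 (GITR) and Tnfrsf9 (4-1BB) encode costimulatory receptors of the tumor necrosis factor receptor family, and Ccr8 encodes a chemokine receptor found on Tregs within tumors. Il2ra and the 3 costimulatory receptors also appear on activated CD8+ and conventional CD4+ T cells, and some on NK cells. In bulk tumors, fewer cells of a type and less RNA per cell cannot be told apart.

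Total counts per tumor were between 16336993 and 26416214. Melanocyte genes, which mark the tumor line, summed to between 8741 and 25021 counts scaled to library size (CPM) in the 12 tumors, so the labelled cell type was present throughout. Neuron genes varied widely within each group, with sums of 127 to 1910 CPM in CD8H tumors and 81.0 to 1046 CPM in the other tumors. The dNK tumor 2 stood apart for T cell genes, with 1 count of Cd4 and 3 of Cd8a.

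In CD8H tumors all 7 genes exceeded their levels in the tumors of the 3 other groups as a whole, by a median of 2.47 on the log2 scale, and in each of the 7 every CD8H tumor lay above all 9 other tumors. The latter held for 10.6% of all tested genes. For separations among the IgG, CD8L and dNK tumors given below, the share of all genes was not taken, so they are not results about these genes alone. The rise was largest for Ccr8 and smallest for Ikzf2. Levels are given first as CPM, scaled by the trimmed mean of M-values (TMM), for tumors 1, 2 and 3 of each group.

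Foxp3 (ENSMUSG00000039521, chromosome X from 7579676 to 7595243 of GRCm38) was at 8.87, 7.49 and 9.09 CPM in CD8H tumors, from 186, 180 and 179 counts. It was at 3.04, 1.81 and 1.17 CPM in IgG tumors, at 2.61, 1.00 and 4.47 CPM in CD8L tumors and at 1.37, 0.303 and 0.783 CPM in dNK tumors. The 3 CD8H tumors were nearly level and CD8L tumor 3 was the highest of the rest, while the IgG, CD8L and dNK tumors overlapped. The mean of CD8H tumors was 8.48 ± 0.867 CPM (SD, n = 3), which was 4.23 times the IgG mean, 3.15 times the CD8L mean and 10.4 times the dNK mean. Against the mean of the other groups, the log2 fold change was 2.36 (SE 0.43, edgeR quasi-likelihood adjusted p = 0.00356). Flicr, listed on the same strand, overlaps Foxp3 and had 286 counts over the 12 tumors, with a log2 fold change of 0.04 (edgeR adjusted p = 0.941). Gm36995 and Ccdc22, on the opposite strand, also overlap Foxp3, with 60 and 2 counts. Reads of these overlapping genes cannot be told apart.

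RefSeq (GRCm38.p6) gave 8 windows of 250 bases upstream of a start for 6 of the 7 genes. The 3 windows that hold TTCNNNGAA, the motif type of the IL-2-responsive factor STAT5, are shown because of that match, and the other 5, among them those of Il2ra, Tnfrsf4 and Ccr8, are not. Below, capitals mark letters that match TTCNNNGAA (the STAT5 type) or GGAAAA (the NFAT core) on either strand, or TGANTCA (the AP-1 type), and the windows run 5′ to 3′ on the plus strand, the coding strand of these 3 genes. The Foxp3 window is chrX:7580233-7580482, the Tnfrsf18 window chr4:156026072-156026321 and the Tnfrsf9 window chr4:150927749-150927998. The Foxp3 and Tnfrsf9 windows precede a downstream start and lie inside the span of their gene. The Tnfrsf18 window spans the listed start of its gene, with the TTCNNNGAA match inside the gene.
Foxp3: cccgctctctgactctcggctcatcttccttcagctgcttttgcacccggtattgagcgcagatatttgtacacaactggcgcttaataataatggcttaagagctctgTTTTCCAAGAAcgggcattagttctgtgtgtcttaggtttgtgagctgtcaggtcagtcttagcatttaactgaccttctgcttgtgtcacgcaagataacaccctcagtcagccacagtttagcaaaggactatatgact
Tnfrsf18: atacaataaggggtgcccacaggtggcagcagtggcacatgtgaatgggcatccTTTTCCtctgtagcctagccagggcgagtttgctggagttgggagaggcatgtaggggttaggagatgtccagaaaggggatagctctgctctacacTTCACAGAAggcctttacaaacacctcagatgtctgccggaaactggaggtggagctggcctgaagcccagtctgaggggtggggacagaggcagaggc
Tnfrsf9: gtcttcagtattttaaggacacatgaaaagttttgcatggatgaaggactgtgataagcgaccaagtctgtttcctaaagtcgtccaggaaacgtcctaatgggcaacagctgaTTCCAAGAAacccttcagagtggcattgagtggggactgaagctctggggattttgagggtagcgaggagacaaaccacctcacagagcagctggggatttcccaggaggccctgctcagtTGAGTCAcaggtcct
TTCNNNGAA was found in 3 of the 8 member windows and in 7.02% of 32851 windows of the same length, 1 or more for each gene of the RefSeq table. In the Foxp3 window it overlapped the NFAT letters, which together form the run TTTTCCAAGAA. GGAAAA was found in 3 of the 8, among them a Tnfrsf9 window not shown, and in 20.4% of all windows, and TGANTCA in 1 of the 8 and in 6.75%. The RUNX core TGTGGT was found in 0 of the 8 and in 14.0% of all windows. A match describes these letters and not a bound site.

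Il2ra (ENSMUSG00000026770, chromosome 2 from 11642807 to 11693193) reached 29.5, 19.7 and 16.7 CPM in CD8H tumors. It was at 6.23, 4.70 and 3.78 CPM in IgG tumors, at 4.47, 1.61 and 6.09 CPM in CD8L tumors and at 2.596, 0.0607 and 0.731 CPM in dNK tumors, where tumor 2 had 1 count. The dNK tumors lay below all IgG tumors and overlapped the CD8L tumors. The log2 fold change of CD8H against the mean of the others was 2.95 (SE 0.57, edgeR adjusted p = 0.00475).

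Ikzf2 (ENSMUSG00000025997, chromosome 1 from 69531214 to 69687245) had the smallest fold change of the 7. It was at 33.0, 26.1 and 26.9 CPM in CD8H tumors, 16.6, 10.03 and 12.4 CPM in IgG tumors, 14.7, 15.9 and 18.01 CPM in CD8L tumors and 10.6, 10.3 and 9.92 CPM in dNK tumors. Its lowest count was 170, in dNK tumor 2, a tumor with 5 counts of Foxp3 and 1 of Il2ra, and the dNK tumors lay below all CD8L tumors and overlapped the IgG tumors. The log2 fold change of CD8H against the mean of the others was 1.15 (SE 0.15, edgeR adjusted p = 0.00073).

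The 3 costimulatory receptor genes lie on chromosome 4, with Tnfrsf4 (ENSMUSG00000029075, 156013843 to 156016612) and Tnfrsf18 (ENSMUSG00000041954, 156026164 to 156028895) 9552 bases apart on the same strand. Tnfrsf4 was at 13.7, 9.15 and 7.06 CPM in CD8H tumors, against 2.99, 2.49 and 2.19 CPM in IgG tumors, 2.06, 1.67 and 2.65 CPM in CD8L tumors and 1.503, 0.849 and 0.783 CPM in dNK tumors. Its CD8H tumors rose by 2.47 on the log2 scale over the mean of the others (SE 0.26, edgeR adjusted p = 0.000566). The dNK tumors lay below every IgG and CD8L tumor.

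Tnfrsf18 was at 11.1, 8.15 and 5.18 CPM in CD8H tumors, 2.03, 2.38 and 1.45 CPM in IgG, 1.90, 0.779 and 2.70 CPM in CD8L and 0.729, 1.33 and 1.10 CPM in dNK tumors. The dNK tumors lay below the IgG tumors and overlapped the CD8L tumors. The log2 fold change was 2.39 (SE 0.34, edgeR adjusted p = 0.00106). Tnfrsf18 overlaps the antisense gene Gm16008, which had 227 counts over the 12 tumors and rose with it by 1.93 on the log2 scale (edgeR adjusted p = 0.0246). Whether the counting used strand is not given in the sources used here, and reads of overlapping genes cannot be told apart. Sdf4, which ends 233 bases before Tnfrsf4, had a log2 fold change of 0.34 (edgeR adjusted p = 0.0736).

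Tnfrsf9 (ENSMUSG00000028965, 150914562 to 150946102) was the member with the highest level per length in CD8H tumors. It was at 54.8, 30.8 and 21.9 CPM in CD8H tumors, 8.36, 4.14 and 4.11 CPM in IgG, 8.55, 3.50 and 7.35 CPM in CD8L and 6.60, 0.971 and 2.45 CPM in dNK tumors. The IgG, CD8L and dNK tumors overlapped. The log2 fold change was 2.86 (SE 0.45, edgeR adjusted p = 0.00179). Camta1, on the opposite strand, overlaps Tnfrsf9 and had 5985 counts over the 12 tumors, with a log2 fold change of 1.17 (edgeR adjusted p = 0.139).

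Ccr8 (ENSMUSG00000042262, chromosome 9 from 120092114 to 120094906) was the sparsest member, with 10 or more counts in 7 of 12 tumors. It had 94, 57 and 64 counts in CD8H tumors (4.48, 2.37 and 3.25 CPM), 19, 12 and 16 in IgG tumors, 12, 5 and 6 in CD8L tumors and 0, 0 and 5 in dNK tumors. Scaled to library size, the IgG tumors were at 0.680 to 0.963 CPM, the CD8L tumors at 0.278 to 0.505 CPM and the dNK tumors at 0 to 0.261 CPM. The groups did not overlap in CPM, but the share of all genes that separate in this way was not taken. The counts of IgG tumor 2 and CD8L tumor 1 were tied, as were those of CD8L tumor 2 and dNK tumor 3. A count of 0 allows up to 3 counts, counting error only, and the CPM of 3 counts was 0.137 in dNK tumor 1 and 0.182 in dNK tumor 2. The log2 fold change of CD8H against the mean of the others was 3.49 (SE 0.53, edgeR adjusted p = 0.00141).

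**Figure D1:**
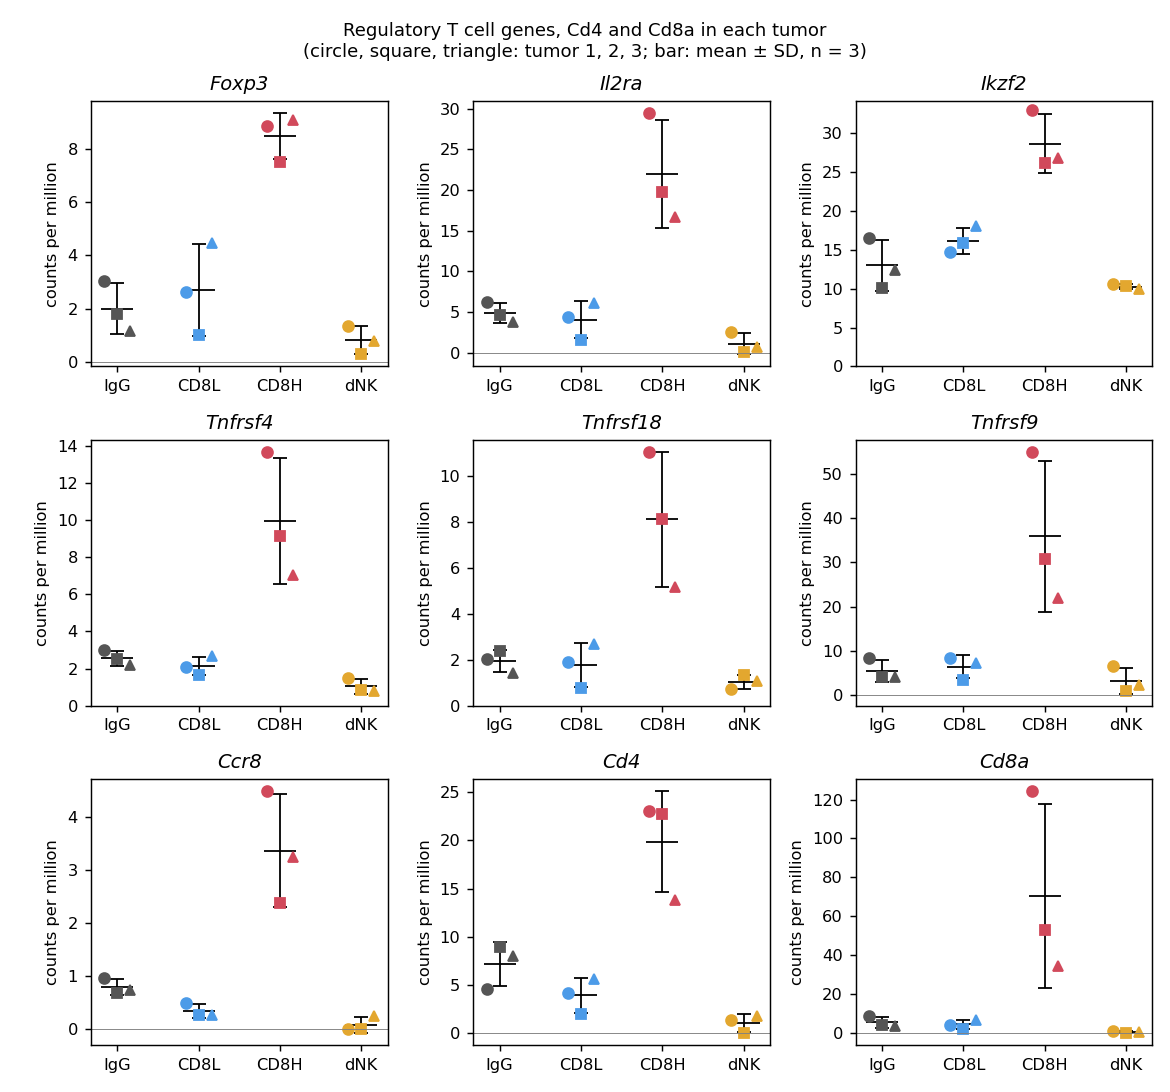
CPM (TMM-scaled, linear axis) of the 7 regulatory T cell genes, Cd4 and Cd8a in each of the 12 tumors. Points are tumors and bars are mean ± SD (n = 3). In every panel the 3 CD8H tumors sit above the 9 other tumors. Foxp3 is nearly level among them, at 7.49 to 9.09 CPM, and Cd8a ranges from 34.3 to 124 CPM.

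Within the CD8H group the genes did not vary to the same degree. The CPM of the highest CD8H tumor was 1.21 times that of the lowest for Foxp3 and 1.26 times for Ikzf2. It was 1.76 times for Il2ra, 1.89 times for Ccr8, 1.94 times for Tnfrsf4, 2.14 times for Tnfrsf18 and 2.50 times for Tnfrsf9. The same ratio was 1.67 for Cd4, the coreceptor of helper and regulatory T cells, and 3.62 for Cd8a, the coreceptor of CD8+ T cells. CD8H tumor 1 was the highest of the group for 6 of the members and for Cd4 and Cd8a, whereas for Foxp3 it was tumor 3.

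Against single groups, the number of members that passed the test depended on the group. Relative to the mean of the 3 other groups 7 of 7 rose, where 26.3% of all tested genes were called in either direction and 14.4% were higher. Relative to dNK 7 of 7 rose (30.3% called), with log2 fold changes from 1.48 for Ikzf2 to 5.18 for Ccr8. Both counts stayed at 7 under each alternative normalization, filter, covariate, block and tool run and with each tumor left out. The CD8L comparison called 5 of 7 (11.2% called, 6.03% higher), with Tnfrsf4 2.22 higher on the log2 scale (SE 0.36, edgeR adjusted p = 0.0165). Foxp3 (1.65, SE 0.59, edgeR adjusted p = 0.0921) and Il2ra (2.43, SE 0.81, edgeR adjusted p = 0.0752) did not pass. The count of 5 fell to 0 without CD8L tumor 1, CD8L tumor 2 or CD8H tumor 1 and in a fit of the compared tumors alone. It was 7 with DESeq2 and with limma voom, which called 2907 and 3870 of all genes, beside 1939 in edgeR.

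Relative to IgG, 2 of 7 passed (0.745% called, 0.577% higher), Ikzf2 at 1.14 (SE 0.19, edgeR adjusted p = 0.0490) and Tnfrsf4 at 1.96 (SE 0.35, edgeR adjusted p = 0.0490). All 7 had an unadjusted edgeR p of at most 0.05 here, as did 3307 of all 17320 genes. The 5 members that did not pass had log2 fold changes of 2.06 to 2.69. Both calls were near the threshold. The count was 0 without any 1 of the 3 IgG tumors, CD8L tumors 1 or 2, CD8H tumors 1 or 2, or dNK tumors 1 or 3. It was 3 without CD8L tumor 3 or CD8H tumor 3 and 4 without dNK tumor 2. With DESeq2 and with limma voom it was 7, where 1312 and 2606 of all genes were called, beside 129 in edgeR. Cd4 differed by 1.47 (SE 0.70, edgeR adjusted p = 0.289) and Cd8a rose by 3.71 (SE 0.70, edgeR adjusted p = 0.0490) in the same comparison.

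**Figure D2:**
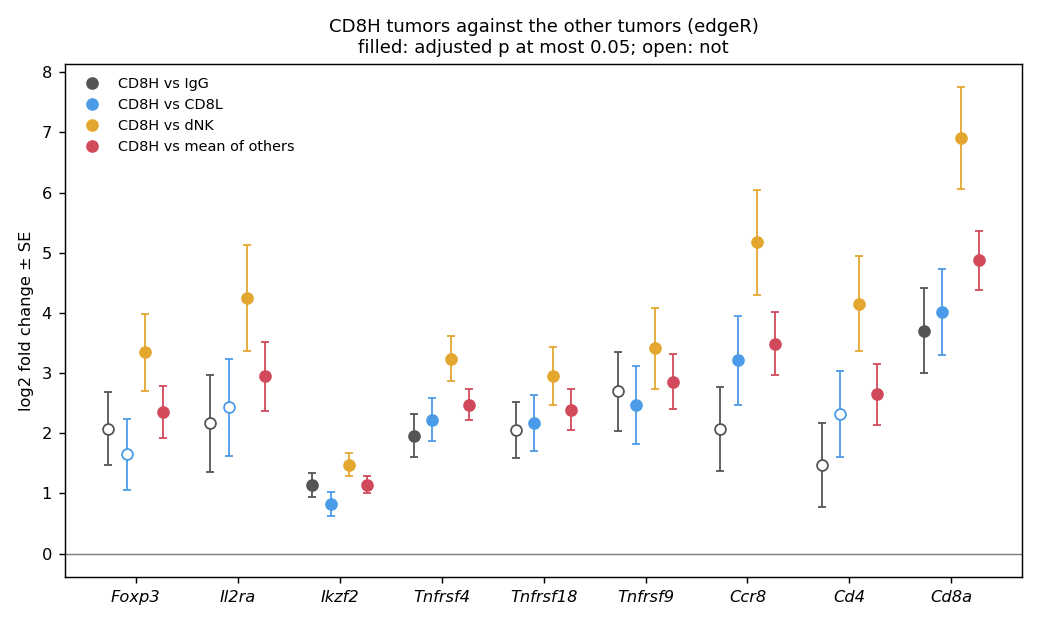
Log2 fold changes of CD8H tumors against each other group and against their mean (edgeR, bars are ± SE), with 3 tumors per group. Filled points passed an adjusted p of 0.05 and open points did not. All values are above 0, the values against dNK are the highest for each gene, and Ikzf2 has the smallest, from 0.82 to 1.48.

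Among the groups other than CD8H the 7 genes were not separated by the test. CD8L against IgG called 0 of 7 in edgeR (0% of all genes), with an unadjusted p of at most 0.05 for 0 of them and 0 with DESeq2 or limma voom. Its log2 fold changes ran from -1.14 for Ccr8 to 0.43 for Foxp3. The Foxp3 value turned to -0.20 without CD8L tumor 3, the tumor with 96 Foxp3 counts. PC blockade as a whole (CD8L and CD8H together) against IgG called 0 of 7 in edgeR (0% of all genes), with a median of 0.95. An unadjusted p of at most 0.05 was reached by 5 of them (724 of all 17320 genes), and either other tool called 0.

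In dNK tumors the 7 genes had the lowest group mean. Against CD8L, which received the same PC blockade without the depleting antibody, the log2 differences were -1.70 for Foxp3, -1.82 for Il2ra, -0.65 for Ikzf2, -1.02 for Tnfrsf4, -0.77 for Tnfrsf18, -0.94 for Tnfrsf9 and -1.96 for Ccr8. None passed in edgeR (0% of all genes called), 4 had an unadjusted p of at most 0.05, and 0 passed with DESeq2 or limma voom. Against IgG the median was -1.27 and 0 passed (0.0173% called). There 3 had an unadjusted p of at most 0.05 (2590 of all 17320 genes), DESeq2 called 2 (565 of all genes) and limma voom 3 (1374 of all genes). Foxp3 was not at 0 in any dNK tumor (30, 5 and 15 counts). The order of the group means was CD8H, CD8L, IgG, dNK for Foxp3, Ikzf2 and Tnfrsf9, and CD8H, IgG, CD8L, dNK for the other 4, and no step below CD8H passed the test.

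Relative to Cd4, CD8H tumors overlapped the other tumors for all 7 genes. The FPKM ratio of Foxp3 to Cd4 was 0.136, 0.117 and 0.233 in CD8H tumors and 0.222, 0.172 and 0.279 in CD8L tumors. It was 0.234, 0.0718 and 0.0518 in IgG tumors and 0.343, 1.77 and 0.152 in dNK tumors, where the value 1.77 rests on 1 count of Cd4. All 4 groups overlapped with at least 1 other. In IgG tumors Cd4 did not follow the T cell gene Cd3e. Cd4 was at 4.61, 8.95 and 7.98 CPM in IgG tumors 1, 2 and 3, and Cd3e at 4.86, 1.36 and 2.52 CPM. The source of Cd4 in these tumors was not tested, which limits Cd4 as a reference. On log2 CPM minus that of Cd4, limma called 1 of 7 in CD8H against the mean of the others, Ikzf2, which fell by 1.68 (SE 0.81, limma adjusted p = 0.0461), where 81.8% of all genes were called. The other 6 differed by -0.50 to 0.37, and the median of all tested genes was -2.79. With an exact two-sided permutation test of count ratios (3 against 9 tumors, smallest possible p = 0.00909), Ikzf2 had p = 0.0636 and the other members 0.364 to 0.927, unadjusted. Every ratio carries the noise of the same reference gene, limma took the variance of all ratios as shared and exactly known, and its p-values for ratios are therefore not reliable alone. Without moderation of the variance 0 of 7 were called, and the Ikzf2 call was also lost without IgG tumor 1 or 3, CD8L tumor 1 or 2, or any 1 of the 3 CD8H tumors.

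Other contrasts relative to Cd4 gave few calls. CD8H against CD8L called 0 of 7 in limma (56.0% of all genes called), with an unadjusted p of at most 0.05 for 0, 0 without moderation and 1 without dNK tumor 2. dNK against CD8L also called 0 of 7 (64.4% called), with an unadjusted p of at most 0.05 for 0, 0 without moderation and 1 without dNK tumor 3. CD8H against dNK called 1 of 7, Ikzf2 lower (93.7% called), 2 without dNK tumor 1 and 3 without dNK tumor 3. dNK against IgG called 3 of 7, higher (82.4% called), 1 without IgG tumor 2 or 3 and 5 without dNK tumor 3. CD8H, CD8L and PC blockade against IgG each called 0 of 7 in limma (0% called), with an unadjusted p of at most 0.05 for 0 and 0 without moderation. In CD8H against IgG 6 of the 7 values were above 0, from 0.41 for Tnfrsf4 to 1.18 for Tnfrsf9, and Ikzf2 was at -0.31, with SE of 0.99 to 1.13, so neither a difference nor its absence was shown.

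Relative to Cd8a, Foxp3 was lowest in CD8H tumors and highest in dNK tumors. The FPKM ratio of Foxp3 to Cd8a was 0.0517, 0.102 and 0.192 in CD8H tumors, 0.257, 0.322 and 0.238 in IgG tumors, 0.436, 0.395 and 0.470 in CD8L tumors and 0.869, 1.21 and 1.55 in dNK tumors. The 4 groups did not overlap, in the order CD8H, IgG, CD8L, dNK. Cd8a alone set CD8H apart, with a lowest value of 34.3 CPM against at most 8.56 CPM elsewhere. It also set dNK apart, with at most 1.14 CPM against at least 1.84 CPM in CD8L tumors. The share of all genes whose ratios to Cd8a separate the groups in this way was not taken, so the separation is not a result about Foxp3 alone. The dNK ratios rest on 25, 3 and 7 counts of Cd8a. Because CD8H and CD8L were separated by CD8+ T cell abundance, a low ratio to Cd8a in CD8H follows in part from that choice.

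Against the mean of the others, limma called 7 of 7 lower relative to Cd8a, where 99.3% of all genes were called, by a median of -2.33 that compares with -4.74 for all tested genes. Foxp3 fell by 2.33 (SE 0.79, limma adjusted p = 0.0033). The exact permutation test (two-sided, unadjusted) gave p = 0.00909, the smallest possible, for 5 members, 0.0182 for Il2ra and 0.227 for Ccr8. CD8H against CD8L called 2 of 7 lower, Foxp3 and Ikzf2 (96.2% called), and 1 without CD8L tumor 1, CD8L tumor 3, CD8H tumor 1 or CD8H tumor 2. Without moderation of the variance it called 6 of 7.

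The ratios to Cd8a in dNK tumors differed among the members. Against CD8L, limma called 2 of 7 higher relative to Cd8a, Ikzf2 and Tnfrsf18 (93.3% of all genes called). It called 5 with the replicate number as a block over all 12 tumors, although a pairing by these numbers was not established. The count of 2 fell to 0 without CD8L tumor 1, CD8L tumor 3 or dNK tumor 2, and was 1 without dNK tumor 3 and 4 without dNK tumor 1. For Tnfrsf9 the FPKM ratio to Cd8a was 12.7, 11.7 and 14.8 in dNK tumors, 4.33, 4.20 and 2.35 in CD8L tumors, 2.15, 2.23 and 2.55 in IgG tumors and 0.970, 1.28 and 1.40 in CD8H tumors. For Il2ra it was 3.10, 0.453 and 2.72 in dNK tumors and 1.40, 1.19 and 1.20 in CD8L tumors, so dNK tumor 2 lay below every CD8L tumor. For Ccr8 it was 0 in dNK tumors 1 and 2 and 1.63 in dNK tumor 3, against 0.0926 to 0.346 in CD8L tumors. Il2ra (0.48, SE 0.94, limma adjusted p = 0.611) and Ccr8 (SE 1.01, limma adjusted p = 0.200) did not pass. With 3 against 3 tumors an exact permutation test cannot go below p = 0.10, the value it gave for 5 of the 7 members between dNK and CD8L. dNK against IgG called 4 of 7 higher, Ikzf2 and the 3 costimulatory receptors (87.3% called), 2 without IgG tumor 1 or dNK tumor 2 and 1 without dNK tumor 3. CD8H against dNK called 7 of 7 lower (99.6% called) and CD8H against IgG 1 of 7 lower (96.9% called), or 5 without moderation. CD8L or PC blockade against IgG called 0 of 7 in limma (0% called), with an unadjusted p of at most 0.05 for 0 and 0 without moderation.

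**Figure D3:**
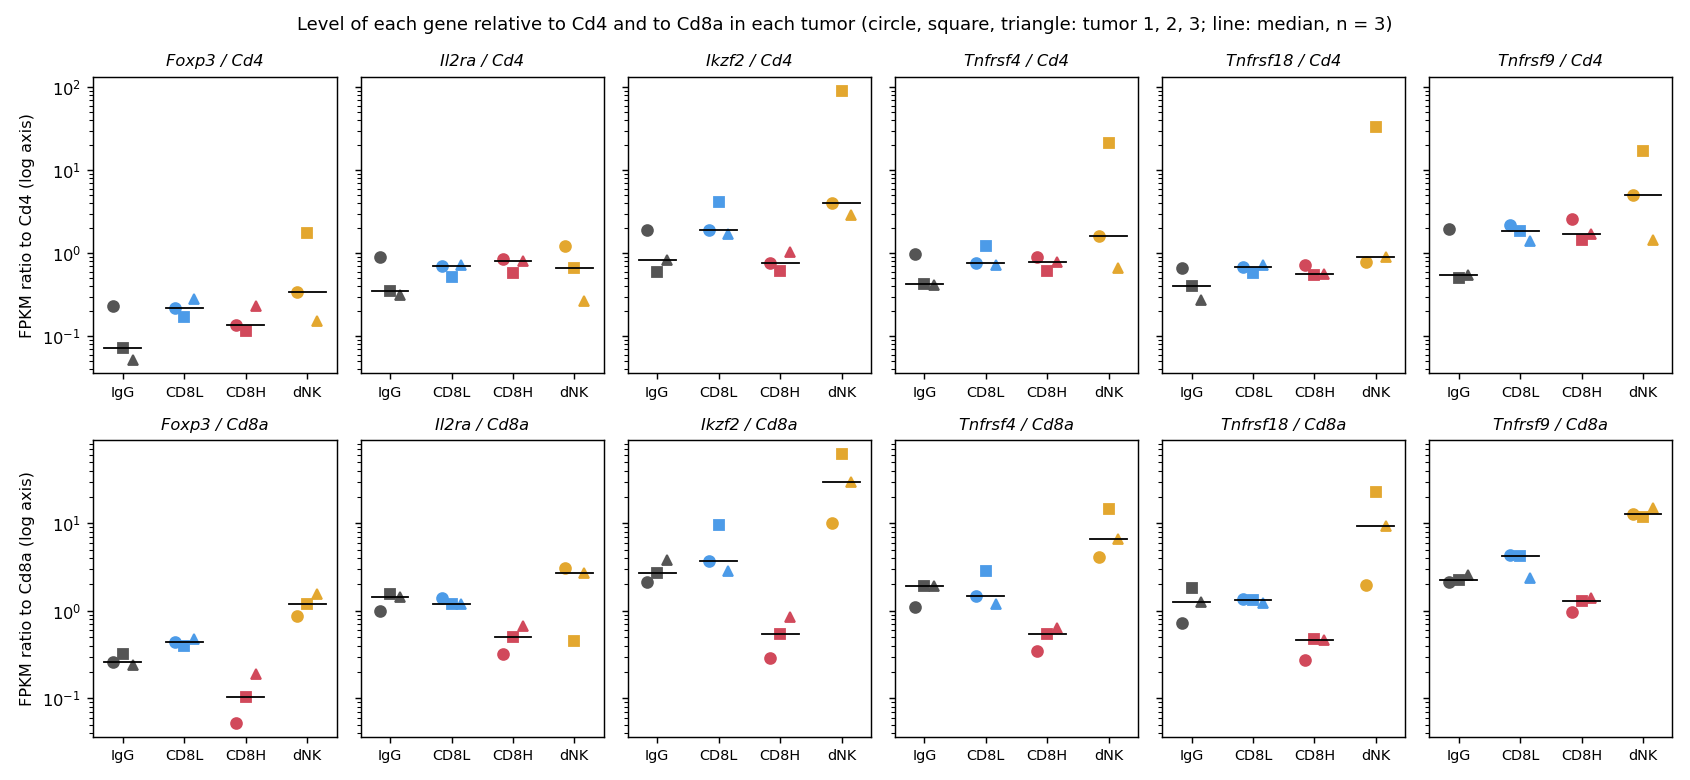
FPKM of 6 regulatory T cell genes divided by that of Cd4 (upper row) or Cd8a (lower row) in each tumor, on log axes. Points are tumors and lines are medians of 3 tumors, and Ccr8 is left out because it is 0 in a pair of dNK tumors. The ratio of Foxp3 to Cd4 overlaps between CD8H (0.117 to 0.233) and CD8L (0.172 to 0.279), while the ratio to Cd8a does not (0.0517 to 0.192 and 0.395 to 0.470). Cd8a by itself does not overlap between these groups either (34.3 to 124 and 1.84 to 6.89 CPM).

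Compared per length, Tnfrsf9 had the highest mean FPKM of the 7 genes in CD8H tumors, at 29.8 ± 12.9 (SD, n = 3), and Foxp3 the lowest, at 2.35 ± 0.185. Ccr8 was at 2.92 ± 0.784. Ikzf2 (11.96 ± 1.03), Tnfrsf4 (11.8 ± 3.56), Il2ra (11.3 ± 2.97) and Tnfrsf18 (9.57 ± 3.18) did not differ beyond their spread. The deposited FPKM of a gene used its own length, which for Ikzf2 was 2453 bases where the table lists 11613. With the listed lengths Ikzf2 came to 1.16 times the Foxp3 level in place of 5.10 times, and Il2ra to 1.80 times in place of 4.83 times, so the order of the middle members depends on the length used.

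The pattern over the 12 tumors was compared by the root mean square (RMS) difference of centered log2 CPM, a description without a test. Among the members, Tnfrsf4 and Tnfrsf18 were closest (RMS 0.47), followed by Foxp3 and Tnfrsf9 (0.48), and Il2ra and Ikzf2 were farthest apart (1.57). Among the genes whose log2 CPM averaged 0 or more (14532, or 14533 for Ccr8), Foxp3 was most like B4galnt3 and Hrh2 (both 0.36), and Il2ra most like Cd5 (0.31), an inhibitory receptor of T cells, and P2ry10 (0.32). Ikzf2 was most like Tgif1 (0.17) and Filip1l (0.18), and Tnfrsf4 most like D16Ertd472e and Itgal (both 0.23). Tnfrsf18 was most like Cd1d1 and Fam107b (both 0.30), and Tnfrsf9 most like Tgm2 and Socs1 (both 0.37). Ccr8 was most like Grap2 (0.49) and Igkc (0.50).

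Other genes associated with Tregs were also higher in CD8H tumors, with fewer calls against single groups. Of 25 listed genes 24 were tested, and in CD8H tumors 20 rose relative to the mean of the others and 0 fell (14.4% of all genes higher). The median log2 fold change was 2.31, against 0.05 for all tested genes. Those with the smallest p were Entpd1, which encodes the ectonucleotidase CD39 (1.93), Prdm1, which encodes the transcription factor Blimp-1 (2.26), Tnfrsf1b, a receptor for tumor necrosis factor (2.23), and Nt5e, which encodes the ectonucleotidase CD73 (2.36), all with an edgeR adjusted p of at most 0.000622. Gpr83, Batf, Nrp1 and Lrrc32 did not pass. Against CD8L 13 of 24 rose (6.03% of all genes higher). Against IgG 2 rose in edgeR, Entpd1 and Prdm1 (0.577% of all genes higher). DESeq2 called 15 and limma voom 19, where they called 1312 and 2606 of all genes. Many of these genes are also expressed by activated conventional T cells or by myeloid cells.

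In the IL-2 pathway, 7 of 10 tested genes rose in the CD8H group relative to the mean of the others and 0 fell, with a median of 1.53. Against CD8L 6 rose, and against IgG 3, which were Il2rg, Jak3 and Cish (7 with DESeq2 or limma voom). The signaling chains of the receptor rose against the mean of the others, Il2rg by 2.19 and Il2rb by 3.88 on the log2 scale, as did the kinase gene Jak3 (1.77) and Cish, a feedback inhibitor induced through STAT5 (1.98), all with an edgeR adjusted p of at most 0.00061. Il2rb and Il2rg also serve the IL-15 receptor of NK and CD8+ T cells. Stat5a (-0.32) and Stat5b (0.00) did not pass. Il2 itself, the ligand, was not tested, with 9, 12 and 2 counts in CD8H tumors and 0 to 2 in every other tumor.

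Of 6 listed ligands of the receptors, Il2, Tnfsf4, Tnfsf18 and Ccl1 were too scarce to pass the filter on low counts. Tnfsf4, the ligand of OX40, had 16, 11 and 9 counts in CD8H tumors and 0 to 4 elsewhere, and Tnfsf18, the ligand of GITR, had 0 to 3 in all 12. Ccl8, a chemokine that binds CCR8 in mice, had 74.7, 17.3 and 14.9 CPM in CD8H tumors and 0 to 7.25 CPM elsewhere (3.84 on the log2 scale against the mean of the others, SE 0.86, edgeR adjusted p = 0.00957). It did not pass against IgG (3.47, SE 1.28, edgeR adjusted p = 0.172). Tnfsf9, the ligand of 4-1BB, was at 2.83 to 5.05 CPM in all 12 tumors and did not pass (-0.07, SE 0.25, edgeR adjusted p = 0.839). Of 3 genes of the CCR4 axis, which also draws Tregs, Ccl22 (2.75) and Ccr4 (2.31) rose against the mean of the others, and Ccl17 (1.04, edgeR adjusted p = 0.273) did not pass. Ccl22 was at 35.5, 8.24 and 10.6 CPM in CD8H tumors, 8.97, 7.02 and 7.93 CPM in IgG tumors, 3.29, 2.45 and 3.91 CPM in CD8L tumors and 1.64, 0.182 and 0.365 CPM in dNK tumors. CD8H tumor 1 stood apart, the other CD8H tumors lay near or within the IgG range, and the dNK tumors were lowest. Against IgG 0 of the 3 passed in edgeR, with an unadjusted p of at most 0.05 for 1 (3307 of all 17320 genes). DESeq2 or limma voom called 1 (1312 and 2606 of all genes). Against CD8L 1 passed, Ccl22 (6.03% of all genes higher).

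Among 6 signaling adaptors of the receptor family, Traf1 (2.64), Birc3 (1.66) and Traf5 (1.83) rose against the mean of the others and against CD8L, and Traf5 alone against IgG in edgeR (3 with DESeq2, 4 with limma voom), while Traf2 (0.03), Traf3 (-0.08) and Traf6 (0.18) did not pass. The shares of all genes higher were 14.4% against the mean, 6.03% against CD8L and 0.577% against IgG. DESeq2 and limma voom called 1312 and 2606 of all genes against IgG.

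Marker genes of other cells moved with the 7 in the comparison of CD8H with the mean of the others. All 14 genes of T cells in general, 5 of 5 of CD8+ T cells, 8 of 8 of NK cells, 5 of 5 of B cells, 7 of 8 of macrophages, 4 of 6 of dendritic cells, 3 of 6 of microglia and 3 of 6 of conventional CD4+ T cells rose, and 1 of 12 of neurons and 0 of 5 of endothelium. Fewer passed against single groups. For NK cells, whose genes were lowest in the dNK tumors that enter this mean, 0 of 8 passed in edgeR against IgG and against CD8L, with an unadjusted p of at most 0.05 for 5 and 6, and 3 and 5 with DESeq2 and 5 and 8 with limma voom. Against IgG edgeR also called 0 of the macrophage, dendritic cell, microglia and conventional CD4+ T cell genes, with an unadjusted p of at most 0.05 for 6, 2, 0 and 2, and 2, 2, 0 and 2 with DESeq2 and 5, 2, 1 and 3 with limma voom. It called 1 of the general T cell genes (Lat), 1 of CD8+ T cells (Cd8a) and 1 of B cells (Ms4a1). Against CD8L it called 11 of the general T cell, 4 of the CD8+ T cell, 2 of the B cell, 5 of the macrophage, 4 of the dendritic cell, 1 of the microglia and 2 of the conventional CD4+ T cell genes. The general T cell genes summed to 296 to 671 CPM in CD8H, 98.7 to 132 in IgG, 27.9 to 154 in CD8L and 14.7 to 39.7 in dNK tumors. Thy1 alone gave 95.8 of the 132 CPM in IgG tumor 2, 87.9 of the 154 in CD8L tumor 3 and 179 of the 427 in CD8H tumor 2. These tumors had the highest neuron sums of their groups (1046, 977 and 1910 CPM). The part of neurons in the T cell sums was not tested. The median log2 fold change of the general T cell genes was 3.57 and that of the CD8+ T cell genes 4.67, beside 2.47 for the 7 regulatory T cell genes. The NK cell genes, which included Eomes of the CD8+ T cell list, summed to 40.5 to 74.4 CPM in CD8H, 14.1 to 28.3 in IgG, 6.40 to 19.7 in CD8L and 0.728 to 2.05 in dNK tumors. In CD8H tumor 1, Gzma (25.0), Klrb1b (16.7) and Klre1 (13.5) gave most of the 74.4 CPM. Ncr1 was at 4.15, 1.79 and 1.93 CPM in CD8H and 2.58, 2.21 and 1.07 in IgG tumors. Klrb1c also overlapped (3.62, 2.37 and 2.49 against 3.14, 1.98 and 2.38 CPM), while the other NK cell genes did not overlap between CD8H and IgG. Macrophage genes summed to 671 to 920 CPM in CD8H, 373 to 479 in IgG, 232 to 395 in CD8L and 142 to 282 in dNK tumors. Conventional CD4+ T cell genes summed to 111 to 154, 113 to 125, 106 to 127 and 99.0 to 112 CPM in the same order, with Tbx21, the T-bet transcription factor that NK and CD8+ T cells also use (4.03), Cxcr5, a receptor of follicular T cells and B cells (3.19), and Cd40lg, the CD40 ligand (1.95), higher in CD8H than the mean of the others.

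No list had all its markers at 0, and B cell genes summed to at most 4.31 CPM outside CD8H and to 8.28 to 16.9 CPM within it. Melanocyte genes had a median of -0.51, with 1 of 7, Tyrp1, lower (-0.78, edgeR adjusted p = 0.0348). The part of these cells in the values of the 7 genes was not tested. With the neuron mean as a covariate, 7 of 7 still rose in the comparison of CD8H with the mean of the others.

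**Figure D4:**
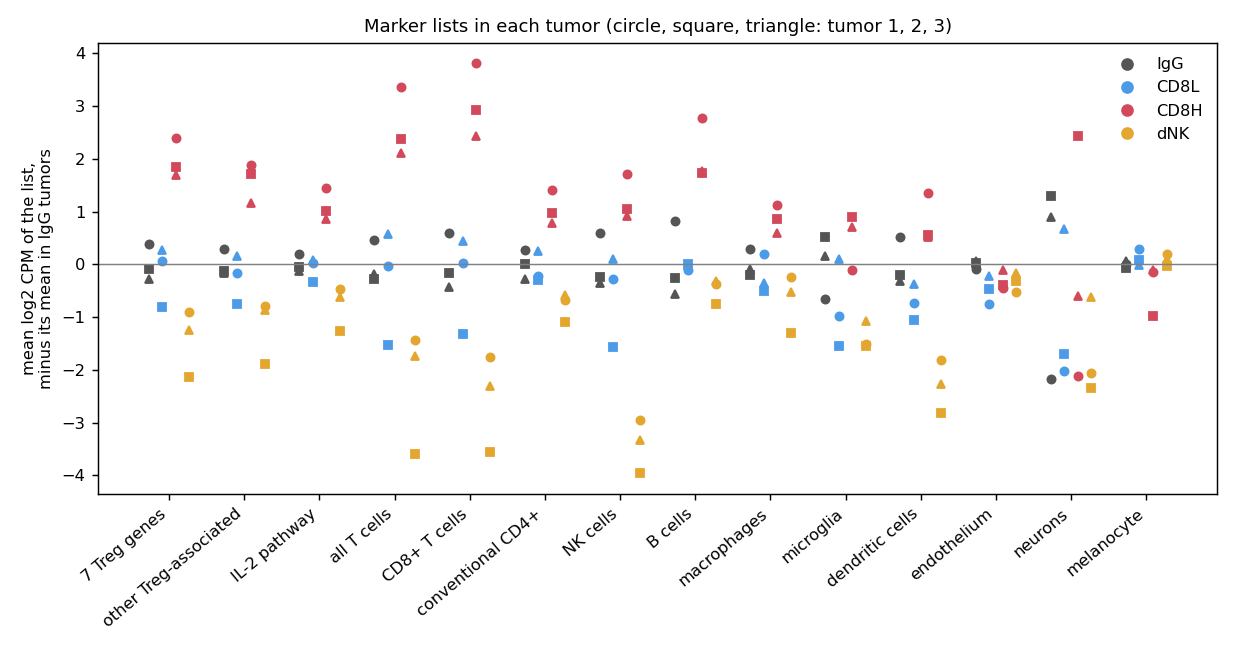
Mean log2 CPM of each marker list in each of the 12 tumors, minus the mean of the IgG tumors, so that 0 is the IgG level. In the T, CD8+ T, NK and regulatory T cell lists, all 3 CD8H tumors lie above the IgG mean and the 3 dNK tumors below. The other Treg-associated, IL-2 pathway, conventional CD4+ T cell, B cell, macrophage and dendritic cell lists do the same. Neuron genes vary among the tumors of each group.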

How the data were processed

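Poly-A RNA of bulk tumors was sequenced from both ends in 12 libraries, grouped by the sample labels. Per the submitters' processing notes, the authors used STAR 2.6.1d for alignment (GRCm38.p6), StringTie 1.3.3b for transcript assembly, featureCounts 1.5.0-p3 for the deposited raw counts per gene, and DESeq2 1.26.0 for their own tests. Deposited FPKM values are counts scaled to transcript length and library size.

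Counts of all 12 libraries were fitted together with edgeR 4.0.16 (R 4.3.3): TMM, filterByExpr, quasi-likelihood test and 8 comparisons. A call needed p and Benjamini-Hochberg adjusted p of at most 0.05. Ratios were log2 CPM (prior count 2) minus Cd4 or Cd8a, tested with limma 3.58.1. Ratios of FPKM used the deposited values. The steps were tested on simulated counts. There the reference of the ratios was an abundant gene that did not change, so the simulation does not cover sparse or changing references such as Cd4 and Cd8a. The members and gene lists were chosen with earlier results of these data known. The text names the members, Cd4, Cd8a, up to 4 genes per list with the smallest p in CD8H against the mean of the others, and the 2 genes most like each member. The ligands, adaptors and other genes outside this rule were named after their values were seen.

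Replicates differed by more than sampling noise (chi-square per degree of freedom 16.5 to 151), so none was counted as a copy. Deviations of same-numbered tumors from their group means correlated above 0.1 in 11 of 18 pairs, and in all 3 pairs only between CD8L and dNK (0.59, 0.48 and 0.54). Between IgG and CD8H the values were 0.73, 0.68 and -0.0045. Deviations within a group of 3 are not independent, so these values cannot establish a pairing. The main fits used none. Alternatives were DESeq2 1.42.0, limma voom, other normalization and filters, a neuron covariate, compared libraries alone and each library left out. A further alternative took the replicate number as a block over all 12 libraries. Ratios without moderated variance and levels by listed gene length were added after seeing the data.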

Additional observations from a re-analysis of the deposited data

How the results depend on the processing

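Members called in CD8H against the mean of the others and against dNK stayed at 7 of 7 in every edgeR, DESeq2 and limma voom alternative run and with each library left out, and CD8L against IgG, dNK against CD8L and PC blockade against IgG stayed at 0. CD8H against IgG moved from 2 to 4 with total counts only, 5 with the neuron covariate, 0 with the compared libraries alone, 7 with DESeq2 and 7 with limma voom, and from 0 to 4 with a library left out. CD8H against CD8L moved from 5 to 0 with the compared libraries alone and from 0 to 6 with a library left out. dNK against IgG moved from 0 to 2 with DESeq2 and 3 with limma voom. All genes called in CD8H against IgG moved from 129 to 1312 with DESeq2 and 2606 with limma voom, and to 0 with the compared libraries alone. The causes were not tested. With the replicate block, members called were 7, 3, 7 and 7 for CD8H against the mean, IgG, CD8L and dNK, and 0 in the others.

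Relative to Cd4, the count for CD8H against the mean of the others moved from 1 to 0 with a prior count of 0.5, with FPKM, without moderation and with the exact permutation test, to 4 with Cd3d, Cd3e and Cd3g as reference, and ranged from 0 to 1 with a library left out. With the Cd3 reference CD8H against CD8L moved from 0 to 1, CD8H against IgG from 0 to 1, CD8H against dNK from 1 to 5 and dNK against IgG from 3 to 1. With a library left out CD8H against dNK ranged from 1 to 3, dNK against IgG from 1 to 5 and dNK against CD8L from 0 to 1, as did CD8H against CD8L. Relative to Cd8a, CD8H against the mean of the others moved from 7 to between 5 and 7. CD8H against IgG moved from 1 to 6 with the block and 5 without moderation, dNK against IgG from 4 to between 1 and 5 with a library left out, and CD8H against CD8L from 2 to 1 with FPKM, 6 with the replicate block and 6 without moderation (1 to 3 with a library left out). dNK against CD8L moved from 2 to 5 with the block and 5 without moderation (0 to 4 with a library left out).

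Values near 0 changed sign. Leaving out a library moved the CD8L against IgG log2 change of Foxp3 between -0.20 and 0.82, Il2ra -0.74 to 0.11, Tnfrsf18 -0.59 to 0.24 and Tnfrsf9 -0.026 to 0.60. Relative to Cd4, in CD8H against the mean of the others, Tnfrsf9 turned to -0.0062 with a prior count of 0.5, -0.028 with FPKM, -1.30 with the Cd3 reference and -0.14 to 0.30 with a library left out, and Il2ra and Ccr8 to -1.02 and -1.12 with the Cd3 reference. In CD8H against CD8L the Cd3 reference gave -0.92 for Il2ra, -1.03 for Tnfrsf9 and -0.55 for Ccr8, and leaving out a library gave -0.16 to 0.25 for Tnfrsf9 and -0.37 to 0.023 for Tnfrsf4. In dNK against CD8L, Ccr8 turned to -0.12 with a prior count of 0.5, -0.69 with FPKM and -0.090 to 1.53 with a library left out, and Il2ra to 0.12 with the Cd3 reference and -0.56 to 0.46 with a library left out. In PC blockade against IgG the Cd3 reference turned Foxp3 to -0.28, Il2ra to -0.64, Ikzf2 to -0.74, Tnfrsf4 to -0.68, Tnfrsf18 to -0.62, Tnfrsf9 to -0.055 and Ccr8 to -1.03, and Ccr8 was at -0.11 to 0.59 with a library left out. Relative to Cd8a, Ccr8 turned to -0.29 in dNK against CD8L with FPKM. Of the member values under all alternatives, 1091 edgeR, 445 Cd4-relative and 438 Cd8a-relative values kept their direction and side of the threshold. Values called in neither fit count among these. In the same order 5, 28 and 1 reversed, 43, 11 and 30 lost a call, and 36, 6 and 21 gained a call. Counts of Ccr8 in dNK tumors (0, 0 and 5) and of Cd4 and Cd8a in dNK tumor 2 (1 and 3) limit those ratios.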
